A study of Mus musculus with 49 samples.

Results

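The genes described here are 10 smooth muscle genes of the urinary bladder: Acta2, Actg2, Myh11, Tagln, Cnn1, Des, Synm, Smtn, Lmod1 and Myocd. They were taken by name. Each was measured by its single-gene probe set of highest mean, out of 18193 genes with such a probe set, and all 10 passed the filter on low signals that 14618 genes passed. Whole bladders were taken from adult female mice of the strain C57Bl/J, whose drinking water contained arsenate, a salt of pentavalent arsenic. The 12-week harvest, at an age of 155 days, held 5 mice each at 0, 0.5, 2, 10 and 50 ppm. The 1-week harvest, at an age of 76 days, held the same doses with 5 mice each, except for 4 at 0.5 ppm. Mice on water alone are the 0 ppm groups. RNA of each mouse, without pooling, was hybridised to its own Affymetrix Mouse430_2 array, giving 49 arrays, and the error of each comparison is the variation from mouse to mouse. The labels of a group's mice begin with a common number, whose meaning is not given and which cannot be told apart from dose.

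Smooth muscle cells of the bladder wall, the detrusor, contract when myosin pulls on actin filaments that are anchored to the cell membrane and to intermediate filaments. Myocardin, the product of Myocd, is a coactivator that binds serum response factor (SRF). SRF sits on CArG boxes, short A and T rich elements near many contractile genes, and the pair keeps smooth muscle cells in their contractile state. Acta2 and Actg2 encode the smooth muscle actins, Myh11 the smooth muscle myosin heavy chain, and Tagln and Cnn1 the actin-binding proteins transgelin and calponin. Des and Synm encode the intermediate filament proteins desmin and synemin. Smtn encodes smoothelin, which binds actin in contractile cells, and Lmod1 encodes leiomodin, which starts actin filaments.

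Because SRF binding elements link Myocd to the other genes, promoter windows from 250 bases before to 50 bases after the start were searched for CArG boxes. RefSeq (GRCm38.p6) held a window for 6 of the 10 genes, Acta2, Cnn1, Des, Lmod1, Smtn and Synm. The perfect CArG box, a pair of C bases, a run of A or T bases and a pair of G bases, reads alike on both strands. It was found in 0 of the 6 windows and in 1.63% of 32851 promoter windows of all genes. Allowing at most 1 G or C inside the run, Acta2 held 2 such elements and Synm held 1, against 9.98% of all windows with 1 or more and 0.822% with 2 or more. The stretches with these elements are shown because Acta2 is the actin of the tightly covarying genes below and Synm is the structural gene with the widest range of group means beside Lmod1. Both are on the minus strand and printed 5′ to 3′, with the elements in capitals. The Acta2 stretch lies at chr19:34255374-34255473 and holds bases 100 to 1 before the start, with elements at 84 to 75 and 34 to 25. The Synm stretch lies at chr7:67759893-67759992 and holds bases 250 to 151 before the start, with the element at 239 to 230. A match is a description of letters and not of a bound site.
Acta2: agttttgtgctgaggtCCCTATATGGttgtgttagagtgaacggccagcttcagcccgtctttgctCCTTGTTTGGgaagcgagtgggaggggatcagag
Synm: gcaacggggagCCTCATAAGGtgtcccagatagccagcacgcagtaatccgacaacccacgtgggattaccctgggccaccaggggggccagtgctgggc

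Signals are linear intensities that had been scaled to the same trimmed mean on every array, and levels are given as log2(signal + 16). Differences are on this scale, where 1 is a doubling, and stand with their standard error (± SE). "Called" means an adjusted p under 0.05 from limma with Benjamini-Hochberg adjustment over all 14618 genes. Smooth muscle signal was strong on every array. The Acta2 probe set ranked between 4 and 44 of all probe sets of an array, with signals of 28330 to 60820, near the top of the scale, where arrays are known to compress differences. Its actin paralogs also gave bright probe sets, with Acta1 at a mean of 13.92 and Actc1 at 13.27, so signal of near-identical actins may be shared between probe sets. Of 10 skeletal muscle markers 8 passed the filter, among them Ckm (muscle creatine kinase) at a mean of 11.84, Tnnt3 at 8.49 and Myh2 at 6.48, while the myosins Myh1 and Myh4 did not pass. Of 6 heart markers 4 passed, among them Tnnt2 at 12.66, while Myh6 and Tnni3 did not pass. In whole bladder RNA, fewer smooth muscle cells and less RNA per cell cannot be told apart.

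The 10 genes differed in how far their levels moved over the 10 groups. Group means spanned 0.38 to 0.48 for Tagln, Acta2, Cnn1 and Actg2, 0.56 for Des, 0.64 for Smtn and 0.67 for Myh11. They spanned 1.06 for Synm, 1.06 for Lmod1 and 1.16 for Myocd. On the chosen probe sets the coactivator thus had the widest range, by a lead smaller than its SD between mice. The genes of narrowest range, Tagln, Acta2, Cnn1 and Actg2, were also the brightest. The spread between mice differed too. The pooled SD within groups was 0.183 to 0.197 for Tagln, Acta2, Cnn1 and Actg2, 0.251 for Des and 0.236 for Smtn. It was 0.354 for Myh11, 0.419 for Synm, 0.35 for Lmod1 and 0.345 for Myocd. Des, Synm, Smtn and Myocd had their highest group mean in 1-week water mice. Acta2, Actg2, Tagln and Cnn1 had theirs at 50 ppm after 1 week, and Myh11 and Lmod1 at 0.5 ppm after 12 weeks. The lowest group was 12-week water for Synm and Myocd, 10 ppm after 12 weeks for Des, Smtn and Lmod1, 2 ppm after 12 weeks for Acta2, Actg2, Tagln and Cnn1, and 0.5 ppm after 1 week for Myh11. These places rest on small gaps, such as 0.006 at the top for Acta2. Only the highest Myocd group led the next by more than the larger SD of the pair, at 0.395, and no lowest group lay that far below.

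**Figure D1:**
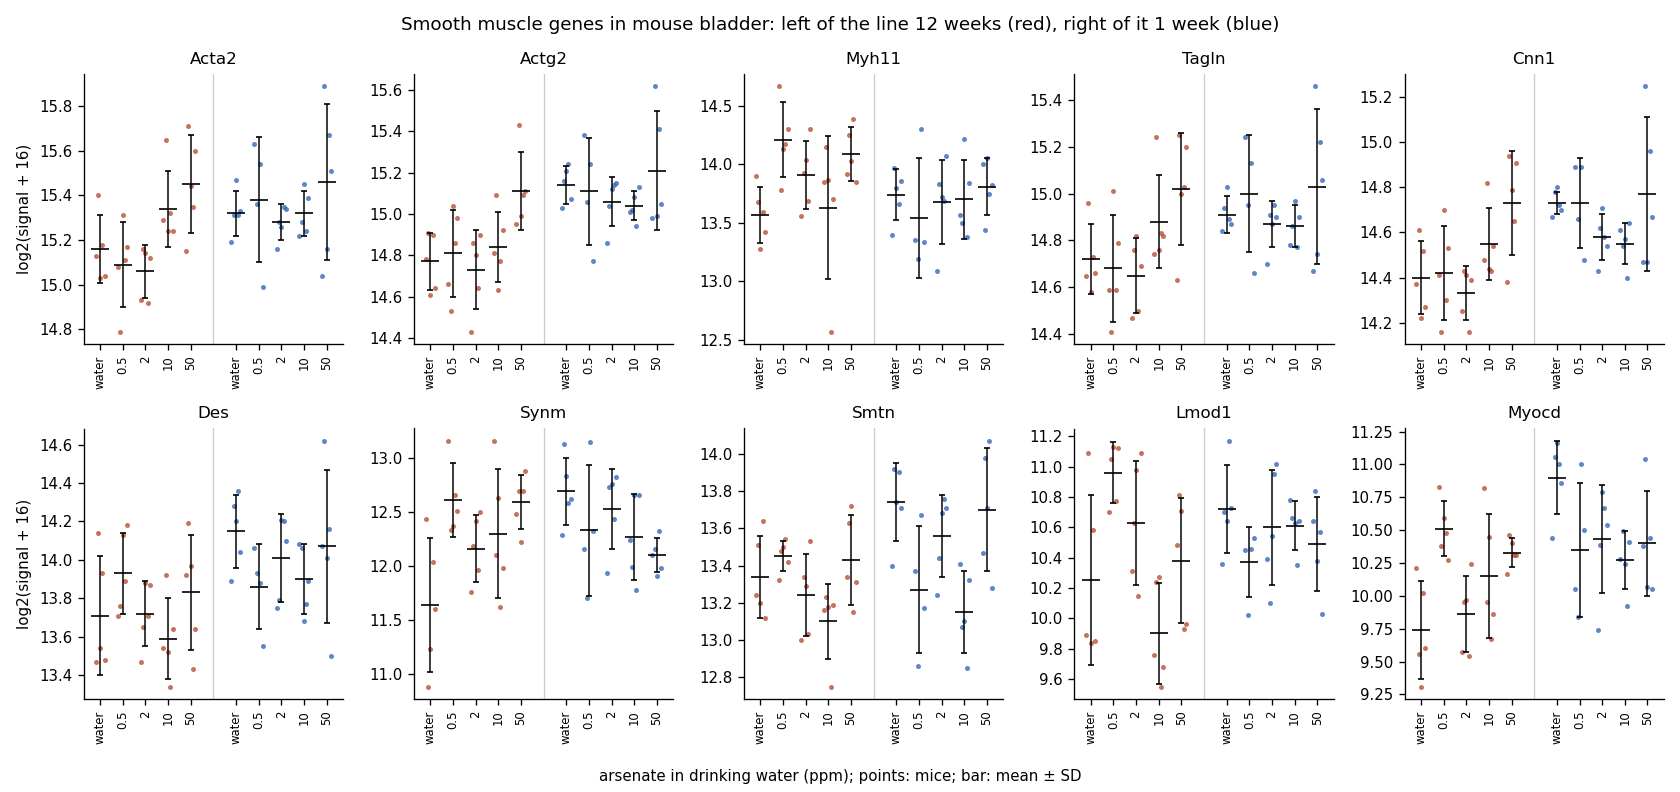
Level of each gene, log2(signal + 16), in every mouse by arsenate dose in ppm, with 12 weeks in red to the left and 1 week in blue to the right of the line in each panel, and the mean ± SD of the group in black. Synm and Myocd were lowest in 12-week water mice, at means of 11.64 and 9.74, and highest in 1-week water mice, at means of 12.69 and 10.90.

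Myocd and Synm were lower in the water mice of the 12-week harvest than in those of the 1-week harvest, which were younger and had drunk the same water for a shorter time. Myocd read 10.21, 9.56, 9.31, 10.02 and 9.60 in the 12-week water mice, against 10.44, 11.06, 11.16, 11.00 and 10.86 in the 1-week water mice. The groups did not overlap. The mean was 9.74 ± 0.37 (SD, n = 5) at 12 weeks and 10.90 ± 0.28 (SD, n = 5) at 1 week, a difference of -1.17 ± 0.20 with an adjusted p of 0.000119, or 0.446 times the 1-week level. Synm, the other intermediate filament gene besides Des, read 12.43, 10.88, 11.23, 12.04 and 11.60 at 12 weeks, against 12.29, 13.13, 12.83, 12.58 and 12.62 at 1 week. Here 1 of the 12-week mice lay above the lowest 1-week mouse, and the other 12-week mice lay below all of them. The difference was -1.06 ± 0.25 with an adjusted p of 0.00272, 0.481 times the 1-week level.

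In this comparison of the water groups 5 of the 10 genes were called lower and 0 higher, where 13.4% of all genes were called and 7.09% of all genes were called lower. All 10 differences were negative, with a median of -0.38 beside 0.02 over all genes. Actg2, the gamma smooth muscle actin, differed by -0.37 ± 0.11 with an adjusted p of 0.0214. Cnn1 differed by -0.34 ± 0.11 with an adjusted p of 0.036, and Des by -0.44 ± 0.15 with an adjusted p of 0.0421, though its second probe set differed by 0.04 ± 0.19 and was not called. The 12-week and 1-week mice did not overlap for Actg2, Cnn1 and Myocd, while 4.74% of all genes had every 12-week mouse below every 1-week mouse. The other 5 genes had adjusted p-values above the threshold: Smtn -0.39 ± 0.14, Lmod1 -0.47 ± 0.21, Tagln -0.20 ± 0.12, Acta2 -0.17 ± 0.12 and Myh11 -0.17 ± 0.21. Myocd and Synm stayed called when any single one of these 10 water mice was left out, with differences of -1.28 to -1.06 for Myocd and -1.25 to -0.87 for Synm. The count fell to 2 without 12-week replicate 3 or 5 or 1-week replicate 3 or 4, and to 3 without 12-week replicate 1 or 1-week replicate 2 or 5.

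Markers of several other cell types were also lower in 12-week water mice. The 10 fibroblast markers, all measured, had a summed signal of 76670 to 113300 in 12-week water mice, against 149300 to 160000 in 1-week water mice. The ranges of the mean marker level did not overlap for pericytes, macrophages, endothelium and interstitial cells. Pericyte markers averaged 10.16 at 12 weeks and 10.51 at 1 week, and macrophage markers 10.56 at 12 weeks and 10.93 at 1 week. Endothelial markers averaged 8.04 at 12 weeks and 8.34 at 1 week, and the 3 interstitial cell markers 10.30 at 12 weeks and 10.58 at 1 week, where the summed signals of this last list did overlap. The 8 skeletal muscle markers measured averaged 8.54 at 12 weeks and 8.79 at 1 week, also without overlap, though their summed signals overlapped. The 4 heart markers measured had summed signals of 9530 to 15810 at 12 weeks, against 18250 to 21350 at 1 week. Mean levels of the heart markers, 9.16 at 12 weeks and 9.28 at 1 week, overlapped between mice. The difference of Gapdh 3′ and 5′ probe sets averaged -0.55 at 12 weeks and -0.36 at 1 week. The 5 liver markers had a mean level of 6.96 in 12-week water mice and 9.57 in 1-week water mice, with summed signals of 5330 to 9205, against 5161 to 15350. Urothelial markers, all 15 measured, had summed signals of 219200 to 260700 at 12 weeks, against 217800 to 238400 at 1 week. Their mean level was higher at 12 weeks, 13.50, than at 1 week, 13.36. Hybridization controls, added to every array, had a mean level of 11.46 in 12-week water mice and 11.90 in 1-week water mice. With these controls as a covariate, Myocd and Synm remained called and Actg2, Cnn1 and Des did not, at adjusted p-values of 0.254, 0.395 and 0.238, and the differences of Acta2 and Tagln turned positive, at 0.09 and 0.06. With RNA integrity numbers as a covariate 3 genes were called, Actg2, Myocd and Synm. The part of these measures in the differences was not tested beyond this.

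Averaged over all 5 doses, 7 of the 10 genes were called lower after 12 weeks than after 1 week, where 37.7% of all genes were called and 19.3% of all genes were called lower. The differences were small: Actg2 -0.26 ± 0.05, Myocd -0.35 ± 0.09, Cnn1 -0.19 ± 0.05, Des -0.24 ± 0.07, Smtn -0.17 ± 0.06, Tagln -0.14 ± 0.05 and Acta2 -0.13 ± 0.05. Their adjusted p-values ran from 7.7e-05 for Actg2 to 0.0459 for Acta2. Synm, which had shown the second largest difference between the water groups, differed by -0.13 ± 0.11 with an adjusted p of 0.397. Lmod1 differed by -0.13 ± 0.09 and Myh11 by 0.19 ± 0.09, both above the threshold. On the chosen probe sets the myosin gene was thus the 1 gene with a positive difference. On their other probe sets Myh11 had -0.115 ± 0.091 and Synm 0.207 ± 0.09, each opposite in sign to the chosen one. Myocd had -0.112 ± 0.171, Des -0.113 ± 0.086, and Acta2 -0.088 ± 0.079 and 0.174 ± 0.111. No other probe set of these 5 genes was called, at adjusted p-values of 0.0638 to 0.639. The Acta2 call was lost in 32 of the 49 fits that each dropped 1 mouse, that of Tagln in 4 and that of Smtn in 2. With poly-A spikes as a covariate 1 gene, Myocd, was called and Acta2, Tagln and Myh11 turned sign, at 0.037, 0.024 and -0.051. With RNA integrity numbers 1 gene was called, Actg2, with hybridization controls 2, and with quantile normalization 3, Actg2, Myocd and Myh11. Harvest, age and length of exposure cannot be told apart in these comparisons.

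**Figure D2:**
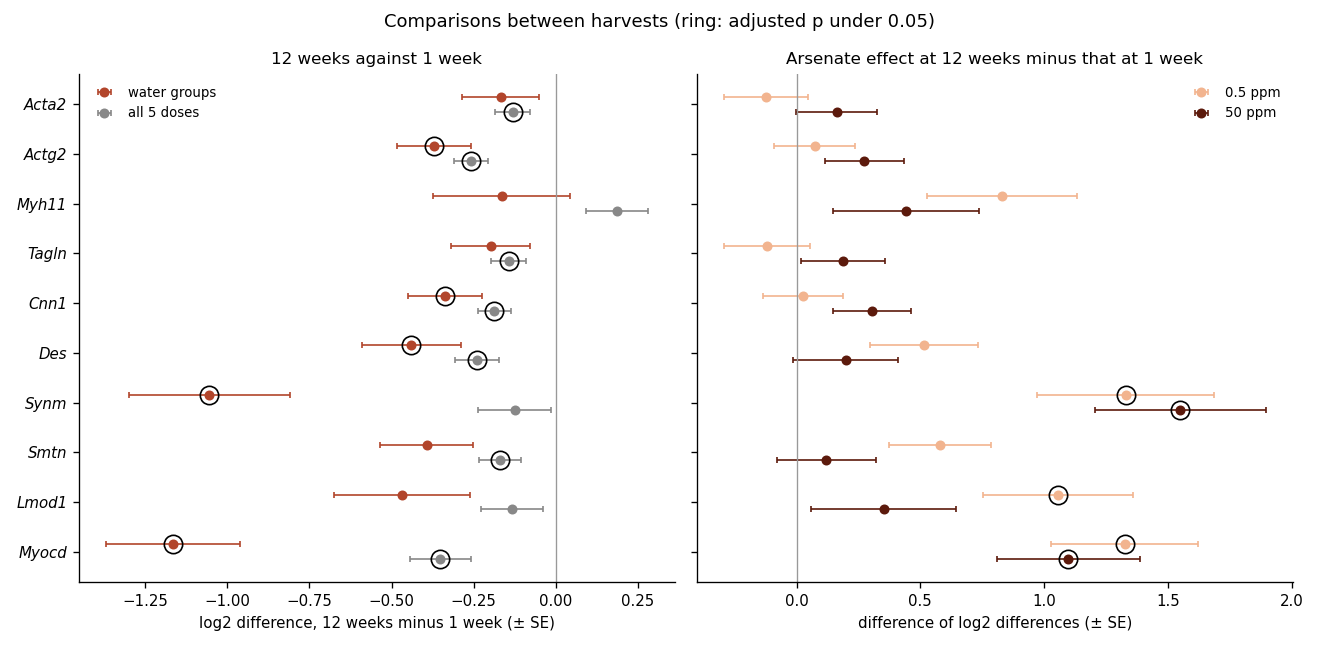
Left, log2 difference of 12 weeks minus 1 week (± SE) for each gene, in water mice (red) and over all 5 doses (grey); right, the arsenate effect against water at 12 weeks minus that at 1 week (± SE) at 0.5 ppm (light) and 50 ppm (dark). Rings mark an adjusted p under 0.05: 5 genes in the water groups, 7 over all doses, 3 at 0.5 ppm and 2 at 50 ppm.

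At 50 ppm for 12 weeks all 10 genes had higher means than in 12-week water mice, but only Synm was called, 1 of 10 where 4.06% of all genes were called and 2.29% of all genes were called higher. Synm read 12.48, 12.69, 12.22, 12.69 and 12.88 at 50 ppm, against the 12.43, 10.88, 11.23, 12.04 and 11.60 of the water mice. All but 1 of the 50 ppm mice lay above the highest water mouse. The mean was 12.59 ± 0.25 (SD, n = 5) at 50 ppm and 11.64 ± 0.62 (SD, n = 5) in water, a difference of 0.96 ± 0.25 with an adjusted p of 0.0337, or 1.94-fold. Myocd read 10.17, 10.46, 10.40, 10.31 and 10.31 at 50 ppm, against 10.21, 9.56, 9.31, 10.02 and 9.60 in water. The difference was 0.59 ± 0.18, with an adjusted p of 0.0593, and 4 of 5 treated mice lay above every water mouse.

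The actins and actin-binding genes had smaller differences at 50 ppm and tighter groups. Actg2 read 14.95, 15.43, 14.99, 15.09 and 15.11 at 50 ppm, against 14.78, 14.91, 14.61, 14.90 and 14.64 in water, and was the 1 gene of the 10 whose groups did not overlap, where 3.01% of all genes had every treated mouse above every water mouse. Its difference was 0.34 ± 0.11 with an adjusted p of 0.0666. Cnn1 differed by 0.34 ± 0.11 (adjusted p = 0.0682), Acta2 by 0.30 ± 0.11 (adjusted p = 0.0886) and Tagln by 0.30 ± 0.12 (adjusted p = 0.113). Myh11, the myosin gene, differed by 0.51 ± 0.20 (adjusted p = 0.123). Desmin, smoothelin and leiomodin showed the smallest differences: Des 0.12 ± 0.14, Lmod1 0.13 ± 0.23 and Smtn 0.09 ± 0.12. The median of the 10 genes was 0.32, beside -0.04 over all genes.

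The Synm call at 50 ppm was lost in 7 of the 10 fits that each dropped 1 mouse, with differences of 0.77 to 1.15 and adjusted p-values of 0.00812 to 0.113. These were the fits without water replicate 2, 3 or 5 (adjusted p = 0.113, 0.0912 and 0.0648) and without 50 ppm replicate 1, 2, 4 or 5 (0.0551, 0.0683, 0.078 and 0.062). Without water replicate 1 Myocd was called too, at 0.71 with an adjusted p of 0.0195, and without 50 ppm replicate 1 Cnn1 was called, at 0.42 with an adjusted p of 0.0447. Poly-A spikes, RNAs added to each sample before labelling, read 9.61 to 10.59 at 50 ppm, against 10.29 to 11.30 in water. With their level as a covariate Synm differed by 0.32 with an adjusted p of 0.81. With the hybridization controls, which averaged 11.96 at 50 ppm and 11.46 in water, Synm differed by 1.07 with an adjusted p of 0.0502, and Des, Smtn and Lmod1 turned negative, at -0.12, -0.08 and -0.18. Endothelial markers, all 6 measured, had summed signals of 1900 to 2653 at 50 ppm, against 1470 to 1977 in water, and urothelial markers 206600 to 273900, against 219200 to 260700. The part of these cells in the differences was not tested.

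At the lowest dose after 12 weeks, 0.5 ppm, Myocd was called higher, 1 of 10 genes where 0.527% of all genes were called and 0.335% of all genes were called higher. It read 10.83, 10.38, 10.59, 10.48 and 10.27 at 0.5 ppm, all above the highest water mouse at 10.21, while 1.51% of all genes had every treated mouse above every water mouse. The difference was 0.77 ± 0.18 with an adjusted p of 0.0468, or 1.7-fold. Synm read 13.16, 12.33, 12.37, 12.66 and 12.51 at 0.5 ppm, a difference from water of 0.97 ± 0.25 with an adjusted p of 0.0565. Its size was close to that at 50 ppm, but both doses were set against the same 5 water mice and share their deviations.

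Lmod1 and Myh11 also read high at 0.5 ppm. Lmod1 read 10.70, 11.05, 11.13, 10.77 and 11.12 at 0.5 ppm, against 9.89, 11.09, 9.84, 10.58 and 9.85 in water, a difference of 0.70 ± 0.23 with an adjusted p of 0.0978. The water mice spanned more than a doubling for this gene, and 1 of them lay within the treated group. Myh11 differed by 0.64 ± 0.20 with an adjusted p of 0.0986, Des by 0.22 ± 0.14 and Smtn by 0.11 ± 0.12. Those 4 genes that showed similar differences at 50 ppm lay near 0 here: Acta2 -0.06 ± 0.11, Tagln -0.04 ± 0.12, Cnn1 0.02 ± 0.11 and Actg2 0.04 ± 0.11. The signs of these 4 turned under other settings. Another Acta2 probe set, away from the top of the scale, differed by 0.54 ± 0.17 at this dose (adjusted p = 0.117) and by 0.48 ± 0.17 at 50 ppm (adjusted p = 0.104). The median of the 10 genes was 0.16, beside 0.00 over all genes.

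The Myocd difference at 0.5 ppm stayed at 0.66 to 0.89 when single mice were left out, but its call, close to the threshold, was lost in 8 of 10 such fits, at adjusted p-values of 0.0537 to 0.162. These were the fits without 0.5 ppm replicate 1, 3, 4 or 5 and those without water replicate 2, 3, 4 or 5. Without 0.5 ppm replicate 2 or water replicate 1 it was kept, with Synm called as well. The call was also lost, at differences of 0.62 to 0.81, with quantile normalization, with no filter, in the fit of all probe sets and with each of the covariates for RNA integrity, poly-A spikes and hybridization controls, at adjusted p-values of 0.0506 to 0.294. In the fit of all 49 arrays together, Myocd, Synm and Lmod1 were called. Urothelial markers had summed signals of 184000 to 225700 at 0.5 ppm, against 219200 to 260700 in water, endothelial markers 2308 to 2710, against 1470 to 1977, and fibroblast markers 102300 to 124000, against 76670 to 113300. Their part in the Myocd difference was not tested.

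A dimmer probe set for Myocd, not the one chosen by the rule, also measured the gene. It read 7.52, 7.55, 7.80, 8.16 and 8.36 at 50 ppm for 12 weeks, against 7.40, 6.47, 6.40, 5.33 and 5.35 in water, with no overlap. On the chosen probe sets, 3.01% of all genes had every treated mouse above every water mouse at this dose. The floor of this scale is 4, and the lowest water readings lay close to it, where small changes in signal give large differences. Offset, filter, normalization and array weights were not varied for this probe set, and no covariate was added. Poly-A spikes, whose mean was lower at 50 ppm than in water, are among the covariates not tried on it. In a fit over all 27065 probe sets, where 2.31% were called higher at this dose, it differed by 1.69 ± 0.35 with an adjusted p of 0.0176. Its call held when any single one of the 10 mice was left out, at adjusted p-values of 0.00329 to 0.047. That check was chosen after seeing the data. At 0.5 ppm it differed by 1.55 ± 0.35 with an adjusted p of 0.0435, where 0.34% of probe sets were called higher, and the call was lost in 9 of 10 such fits, in all but the fit without water replicate 1, with adjusted p-values up to 0.123. Between the water groups it differed by -1.73 ± 0.38 with an adjusted p of 0.00159, where 6.69% of probe sets were called lower. At 2 ppm the dimmer Myocd probe set differed by 1.46 ± 0.35 (adjusted p = 0.343), where the brighter one had 0.12 ± 0.18, and at 10 ppm by 1.29 ± 0.35 (adjusted p = 0.0782). Its slope over dose ranks was called, at 0.31 ± 0.09 per rank with an adjusted p of 0.0475, where 2.97% of probe sets were called higher. Its arsenate effect at 12 weeks minus that at 1 week was called at 50 ppm, 2.16 ± 0.53 (adjusted p = 0.0121), and at 10 ppm, 2.20 ± 0.53 (adjusted p = 0.0165), but not at 0.5 ppm, 1.84 ± 0.55 (adjusted p = 0.0507). The shares of probe sets called higher in these differences were 3.84% at 50 ppm, 1.7% at 10 ppm and 2.38% at 0.5 ppm.

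Other probe sets were measured for Acta2, Myh11, Des and Synm too, and did not all move like the chosen ones. The second Synm probe set showed smaller differences, 0.57 at 50 ppm (adjusted p = 0.0776), 0.78 at 0.5 ppm (adjusted p = 0.0511) and -0.28 between the water groups (adjusted p = 0.379), so the size of the Synm differences depended on the probe set. Its effect at 12 weeks minus that at 1 week was 0.70 ± 0.28 at 50 ppm (adjusted p = 0.109), and was called at 0.5 ppm, at 1.09 ± 0.29 (adjusted p = 0.0272). For Acta2, 1 of 2 other probe sets was called lower between the water groups, at -0.59 ± 0.17 (adjusted p = 0.0192), and for the effect between harvests at 50 ppm, at 0.98 ± 0.25 (adjusted p = 0.0136), where the chosen probe set was called in neither. The remaining Acta2 probe set had 0.07 ± 0.24 and -0.08 ± 0.35 in these comparisons. The second Myh11 probe set was called in the same comparisons, at -0.62 ± 0.20 (adjusted p = 0.0317) and 1.06 ± 0.28 (adjusted p = 0.0187), again unlike the chosen one. The second Des probe set had 0.04 ± 0.19 between the water groups (adjusted p = 0.918), where the chosen one was called lower, and -0.38 ± 0.20 at 50 ppm for 12 weeks (adjusted p = 0.252), opposite in sign to the chosen one.

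**Figure D3:**
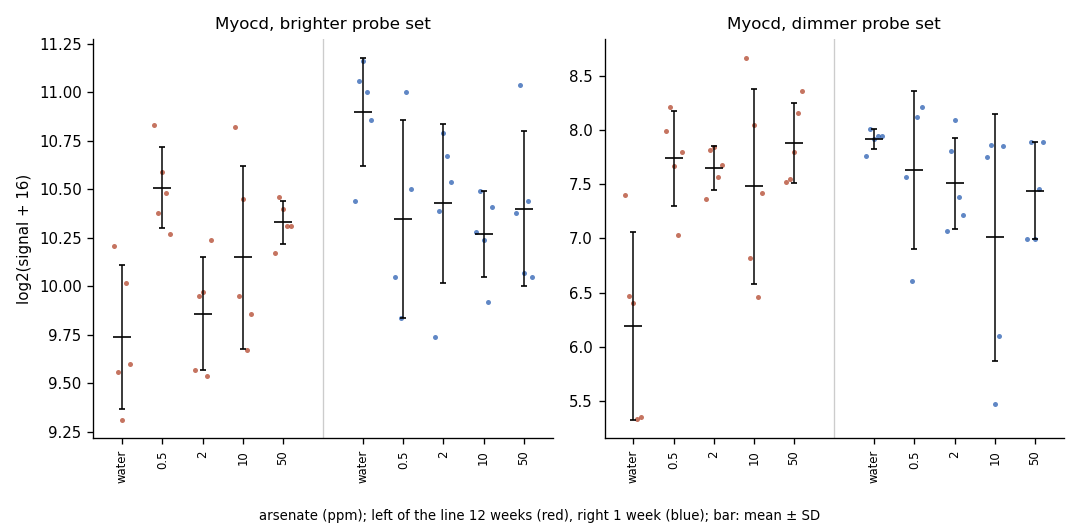
Level of Myocd, log2(signal + 16), in every mouse on the brighter probe set (left panel) and the dimmer one (right panel) by arsenate dose in ppm, with 12 weeks in red and 1 week in blue, and mean ± SD in black. On both probe sets 12-week water mice had the lowest mean, 9.74 and 6.19, and 1-week water mice the highest, 10.90 and 7.92.

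At the middle doses after 12 weeks 0 of the 10 genes were called, where 0.0137% of all genes were called at 2 ppm and 0.335% at 10 ppm. Unadjusted p-values were under 0.05 for 1 of the 10 genes at 2 ppm and for 2 at 10 ppm, beside 1449 and 2346 of all 14618 genes. Synm read 11.76, 12.18, 12.42, 11.96 and 12.50 at 2 ppm and 13.16, 12.10, 12.63, 11.62 and 11.98 at 10 ppm. Its difference from the same water mice was 0.53 ± 0.25 at 2 ppm (adjusted p = 0.49) and 0.66 ± 0.25 at 10 ppm (adjusted p = 0.194). Lmod1 differed by 0.38 ± 0.23 at 2 ppm (adjusted p = 0.561), and Myocd by 0.41 ± 0.18 at 10 ppm (adjusted p = 0.266). With poly-A spikes as a covariate, which averaged 9.76 at 10 ppm and 10.81 in water, both 10 ppm differences turned sign, to -0.115 for Synm and -0.008 for Myocd. On the chosen probe set the 4 12-week doses thus gave Synm differences of 0.97, 0.53, 0.66 and 0.96 in dose order, with no steady climb with dose. The second Synm probe set gave 0.78, 0.34, 0.06 and 0.57 in dose order, at adjusted p-values of 0.0511 to 0.901.

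On the chosen probe sets, a slope over the 5 dose ranks at 12 weeks called 0 of the 10 genes, where 5.27% of all genes were called, while the dimmer Myocd probe set was called as given above. The slopes nearest the threshold belonged to Acta2, 0.09 ± 0.03 per rank with an adjusted p of 0.0515, and Cnn1, 0.08 ± 0.03 with an adjusted p of 0.0655. The slope had an unadjusted p under 0.05 for 5 of the 10 genes, beside 3294 of all 14618 genes. Acta2 group means in dose order were 15.16, 15.09, 15.06, 15.34 and 15.45. Means of the 2 highest doses lay above water and those of the 2 lowest below it. Acta2 was called without water replicate 1 or 2, 0.5 ppm replicate 1, 2 ppm replicate 1 or 4, or 50 ppm replicate 1. Of these, the fits without 0.5 ppm replicate 1 and 50 ppm replicate 1 called 3 genes, and the others called 1.

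**Figure D4:**
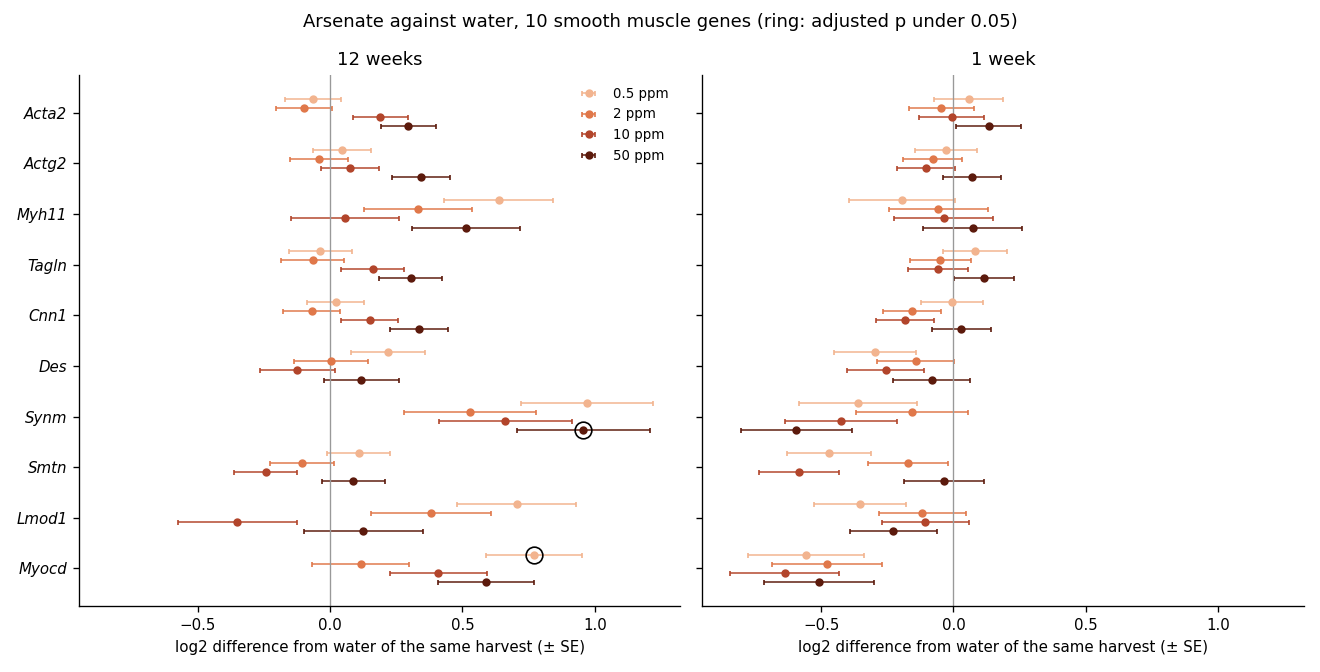
Log2 difference from water of the same harvest (± SE) for each gene at 0.5, 2, 10 and 50 ppm (light to dark), at 12 weeks (left) and 1 week (right). Rings mark an adjusted p under 0.05, Synm at 50 ppm and Myocd at 0.5 ppm after 12 weeks. All 10 points of 50 ppm lie above 0 at 12 weeks, and all points of Myocd lie below 0 at 1 week.

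After 1 week 0 of the 10 genes were called at any dose. The share of all genes called was 0.0479% at 0.5 ppm, 0% at 2 ppm, 0.78% at 10 ppm and 0.335% at 50 ppm, and 0.267% for the slope over dose ranks, which also called 0 of the 10 genes. Unadjusted p-values were under 0.05 for 2, 1, 2 and 2 of the 10 genes in dose order, beside 1823, 867, 2505 and 1689 of all 14618 genes. Myocd means lay below water at each dose, with differences of -0.56, -0.48, -0.64 and -0.51 in dose order and adjusted p-values of 0.302, 0.828, 0.115 and 0.322. The smallest adjusted p was that of Smtn at 10 ppm, which read 13.41, 13.07, 13.10, 12.85 and 13.32 at 10 ppm, against 13.40, 13.92, 13.74, 13.90 and 13.71 in 1-week water. Only 1 treated mouse lay above the lowest water mouse, and the difference was -0.58 ± 0.15 with an adjusted p of 0.0567. It was called without 10 ppm replicate 1 or water replicate 1, where the adjusted p fell as low as 0.0279. RNA integrity numbers averaged 8.73 over the 3 mice at 10 ppm that have one and 9.28 over the 5 water mice. At 2 ppm, the group with the lowest mean, they averaged 8.16 over 5 mice, with a lowest value of 7.2. With the number as a covariate, which leaves out the mice that lack one, Smtn and Myocd were called lower at 10 ppm.

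Other differences at 1 week were not called either. Smtn differed by -0.47 ± 0.16 at 0.5 ppm (adjusted p = 0.232), and Cnn1 by -0.16 ± 0.11 at 2 ppm (adjusted p = 0.91). Synm differed by -0.59 ± 0.21 at 50 ppm (adjusted p = 0.236), reading 12.10, 12.16, 11.91, 12.32 and 11.98 at 50 ppm, against 12.29, 13.13, 12.83, 12.58 and 12.62 in water. Its second probe set differed by only -0.13 ± 0.19 (adjusted p = 0.823). Cnn1 was the 1 gene whose groups did not overlap, with all 10 ppm mice at 14.64 or below and all water mice at 14.67 or above, where 3.08% of all genes had every treated mouse below every water mouse. The slope over dose ranks was -0.13 ± 0.05 for Synm (adjusted p = 0.311) and -0.12 ± 0.05 for Myocd (adjusted p = 0.432). On the second Synm probe set the slope was -0.02 ± 0.04 (adjusted p = 0.934). The 4 doses of this harvest share the same 5 water mice.

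The arsenate effects on Synm and Myocd differed between the harvests. At 50 ppm the effect at 12 weeks minus that at 1 week was 1.55 ± 0.35 for Synm (adjusted p = 0.00657) and 1.10 ± 0.29 for Myocd (adjusted p = 0.0171). These were 2 of 10 genes called, where 7.36% of all genes were called and 3.61% of all genes were called higher at 12 weeks. At 0.5 ppm 3 of 10 genes were called, where 4.61% of all genes were called and 3.17% of all genes were called higher. They were Synm at 1.33 ± 0.36 (adjusted p = 0.0243), Myocd at 1.33 ± 0.30 (adjusted p = 0.00854) and Lmod1 at 1.06 ± 0.30 (adjusted p = 0.0327). At 2 ppm 0 genes were called, where 0% of all genes were, and Myocd differed by 0.59 ± 0.29 and Synm by 0.69 ± 0.35 (adjusted p = 0.82 and 0.84). At 10 ppm 0 were called, where 1.38% of all genes were, with Myocd at 1.05 ± 0.29 (adjusted p = 0.0509) and Synm at 1.09 ± 0.35 (adjusted p = 0.104). The second Synm probe set had 0.24 ± 0.28 at 10 ppm (adjusted p = 0.762). Unadjusted p-values were under 0.05 for 1 of the 10 genes at 2 ppm and for 3 at 10 ppm, beside 869 and 2038 of all 14618 genes. Myocd was called at 10 ppm without 12-week water replicate 1 or 4, 1-week water replicate 1 or 10 ppm 12-week replicate 4 or 5, at adjusted p-values of 0.0209 to 0.0441. Synm was called too, at 0.0311 and 0.0427, without 12-week water replicate 1 and without 10 ppm 12-week replicate 4.

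Each of these differences holds both water groups, whose own difference was -1.17 for Myocd and -1.06 for Synm, and all 4 doses share those 10 water mice. In 50 ppm mice Myocd averaged 10.33 at 12 weeks and 10.40 at 1 week, and Synm averaged 12.59 at 12 weeks and 12.09 at 1 week. The calls of both genes at 50 ppm held when any single one of the 20 mice was left out, and so did that of Myocd at 0.5 ppm with any of the 19 mice left out. On the second Synm probe set the 50 ppm difference was smaller, 0.70, and not called (adjusted p = 0.109). The Synm call at 0.5 ppm was lost without 0.5 ppm 1-week replicate 2 or 3, 12-week water replicate 3 or 1-week water replicate 2, at adjusted p-values of 0.057 to 0.0901. The Lmod1 call was lost in 9 of 19 fits, at adjusted p-values up to 0.10. These were the fits without 0.5 ppm 12-week replicate 3 or 5, 0.5 ppm 1-week replicate 2 or 3, 12-week water replicate 1, 3 or 5, or 1-week water replicate 2 or 4. Without 0.5 ppm 1-week replicate 4 the count rose to 5, with Myh11 and Smtn added. With the poly-A spikes as a covariate the 50 ppm differences were 1.28 for Synm and 1.00 for Myocd, with adjusted p-values of 0.0938 and 0.136.

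Within groups, most of the 10 genes covaried, and 3 overlapping sets of them are described, picked from the correlations after they were seen. After each group's mean was subtracted, the 45 pairs had a Pearson r of -0.02 to 0.96 over 49 arrays, with a median of 0.43, and 44 pairs were positive. Acta2, Tagln, Cnn1 and Actg2, the actins and actin binders, had r values of 0.86 to 0.96 with each other. Des, Lmod1 and Smtn had 0.75 for Des with Lmod1, 0.72 for Smtn with Lmod1 and 0.70 for Des with Smtn. Myocd correlated with Synm at 0.80 and with Myh11 at 0.54, and Synm with Myh11 at 0.68. Myocd had lower values with Acta2, 0.29, and Tagln, 0.25, but 0.62 with Smtn. The sets were not separate, as Actg2 had 0.71 with Des and 0.60 with Smtn, and Cnn1 had 0.61 with Des. Points share the array and its scaling, and the amount of muscle in a bladder enters all of them.

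**Figure D5:**
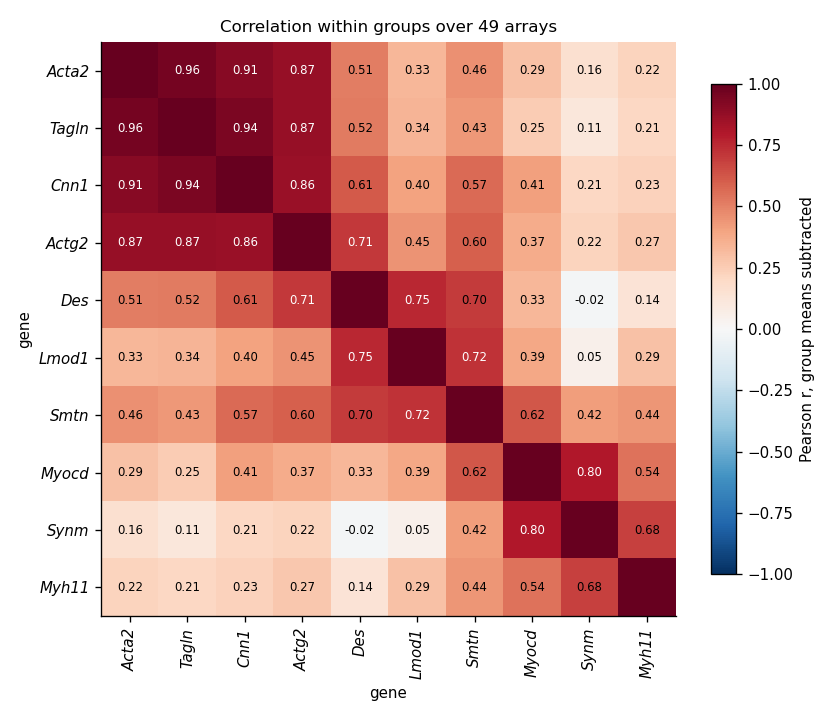
Pearson r between the 10 genes over 49 arrays after subtraction of each group's mean, with genes along both axes and colour from -1 (blue) to 1 (red). Acta2, Tagln, Cnn1 and Actg2 form the block of 0.86 to 0.96, and Myocd has 0.80 with Synm and 0.29 with Acta2.

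Outside the 10 genes, the likeness to their mean was highest for Pgm5, which encodes aciculin of the dense plaque, at r = 0.90. Tpm1 (tropomyosin) followed at 0.87, then Csrp1 at 0.86, Flna (filamin A) at 0.83 and Ckb (brain creatine kinase) at 0.83. The genes most like Myocd were Plod2, a collagen lysyl hydroxylase, at 0.76, Fam168a at 0.71, Pgm5 at 0.70, Nhsl2 at 0.69 and Ddr2, a collagen receptor, at 0.69. These are descriptions over 49 arrays within groups.

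Genes that work with the 10 were followed as 2 lists. The contractile and dense-plaque list held 38 genes, of which 36 were tested. At 50 ppm for 12 weeks 31 of 36 were positive with a median of 0.23, and 1, Tpm1, was called higher, beside 2.29% of all genes, at 0.36 ± 0.10 with an adjusted p of 0.0418. At 0.5 ppm 34 of 36 were positive with a median of 0.35, and 0 were called. Between the water groups 12 of 36 were called lower, beside 7.09% of all genes, and 0 higher, with a median of -0.34. Rock1, a kinase that raises the calcium sensitivity of contraction, differed by -1.02 ± 0.23 (adjusted p = 0.00175), Hspb6 by -0.56 ± 0.15 (adjusted p = 0.00774) and Pgm5 by -0.49 ± 0.13 (adjusted p = 0.00869). For the arsenate effect between harvests, 12 of 36 were called higher at 0.5 ppm, beside 3.17% of all genes, and 4 at 50 ppm, beside 3.61%. Ppp1r12a, a targeting subunit of myosin phosphatase, was called at both doses, at 1.11 ± 0.28 and 0.95 ± 0.27. Ldb3 was also called at both, at 0.90 ± 0.22 and 0.67 ± 0.21. Over all doses 15 of 36 were called lower after 12 weeks, beside 19.3% of all genes, and 2 higher, Itga8 at 0.46 ± 0.09 and Dmd at 0.36 ± 0.12. In the other comparisons 0 of 36 were called.

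The list of SRF, its cofactors and other genes of that axis held 14 genes, all tested. At 50 ppm for 12 weeks 2 of 14 were called higher, beside 2.29% of all genes: Tead1, a DNA-binding factor, at 0.71 ± 0.17 (adjusted p = 0.024) and Prkg1, cGMP-dependent kinase, at 0.77 ± 0.22 (adjusted p = 0.045). Between the water groups 6 of 14 were called lower, beside 7.09% of all genes: Srf at -0.46 ± 0.15, Gata6 at -0.42 ± 0.10, Csrp2 at -0.44 ± 0.11, Fhl1 at -0.32 ± 0.10, Fhl2 at -0.50 ± 0.16 and Prkg1 at -0.62 ± 0.19, with adjusted p-values from 0.0046 to 0.0369. The arsenate effect between harvests was called higher for 4 of 14 at 0.5 ppm, beside 3.17% of all genes, including Srf at 0.72 ± 0.22 (adjusted p = 0.0486), and for 2 at 50 ppm, beside 3.61%, Tead1 and Prkg1. After 1 week Mrtfa, a coactivator of SRF related to myocardin, was called lower at 10 ppm, at -0.50 ± 0.12 (adjusted p = 0.0464). The 12-week slope was called for Tead1, at 0.15 ± 0.04 per rank (adjusted p = 0.0213). Over all doses 7 of 14 were called lower after 12 weeks, beside 19.3% of all genes, and 1, Tead1, higher, and 0 were called in the remaining comparisons.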

How the data were processed

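The authors deposited an unlogged intensity for each probe set of each array, made with GCOS 1.0 per the submitters' processing notes. Settings of that software are not given here. The intensities had been scaled: their 2% trimmed mean per array lay between 500.003 and 500.004. Of 45101 probe sets, 34945 had 1 gene in the platform annotation, 932 several and 9160 none, and 64 were controls. Signals were taken as log2(value + 16). A gene, measured by its single-gene probe set of highest mean, had to exceed the 40th percentile of the array on 4 or more arrays.

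Each harvest was fitted alone with limma 3.58.1 (lmFit and trended eBayes, R 4.3.3), using 25 arrays for 12 weeks and 24 for 1 week. Contrasts between harvests used all 49. P-values were Benjamini-Hochberg adjusted over 14618 genes. The number of arrays limits the precision. On simulated data for 50 ppm at 12 weeks, the fit found 41.8% of the 1.5-fold changes and 89.6% of the 2-fold ones, with 9 false among 162 calls.

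All 10 genes were named with their levels, and differences of all of them at 50 and 0.5 ppm of 12 weeks and between harvests. Elsewhere called genes, or the 2 of smallest p, were named. The genes and lists were chosen with earlier results of these data known. Replicate numbers did not pair mice: 10 of 96 same-number pairs had a correlation of deviations over 0.1. Alternatives covered offset, normalization, filter, probe sets, array weights, RNA integrity, spike and hybridization controls, a joint fit and single mice. Plots used matplotlib 3.10.9 under Python 3.11.15.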

Additional observations from a re-analysis of the deposited data

Results flagged for a closer look

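In 7 of 100 gene and group combinations, 1 mouse stood apart from the rest of its group by Dixon's criterion, where chance gives about 1 in 20. At 10 ppm for 12 weeks replicate 2 was highest for Acta2 at 15.65 (next 15.32), for Tagln at 15.24 (next 14.83) and for Cnn1 at 14.82 (next 14.54). In the same group replicate 4 was lowest for Myh11 at 12.57 (next 13.70) and for Smtn at 12.75 (next 13.16). At 0.5 ppm for 1 week replicate 4 was highest for Myh11 at 14.30 (next 13.35), and replicate 3 was lowest for Lmod1 at 10.02 (next 10.45).

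The arsenate effect differed between the harvests, by the test of the difference itself, in 5 cases. At 0.5 ppm the effect at 12 weeks minus that at 1 week was 1.33 for Synm, 1.33 for Myocd and 1.06 for Lmod1. At 50 ppm it was 1.55 for Synm and 1.10 for Myocd. Of all genes, 4.61% were called at 0.5 ppm and 7.36% at 50 ppm. Each difference holds both water groups, which themselves differed in these genes. The second Synm probe set had 0.70 at 50 ppm (adjusted p = 0.109). With poly-A spikes as a covariate both 50 ppm calls were lost. The Lmod1 call was lost in 9 of 19 fits that each dropped 1 mouse.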

How the results depend on the processing

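Apart from the fits that each dropped 1 mouse, of 202 counts of called genes under alternatives 164 stayed within 1.5 times and 38 moved. Of 816 such values of single genes, 722 kept direction and side of the threshold, 44 lost a call, 33 gained one and 17 turned sign. The second Myocd probe set is not among these. The cause of a move was not tested, other than fewer mice where mice were left out. Counts under alternatives, above and below, stand without the share of all genes called under the same setting. Whether a count moved more than the calls over all genes therefore cannot be told from them.

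With array weights, counts were 1 at 0.5 ppm and 2 at 10 ppm after 1 week, 4 at 0.5 ppm and 4 at 50 ppm after 12 weeks, 2 for the 12-week slope, and 6 at 0.5 ppm and 2 at 10 ppm for the difference between harvests. With RNA integrity as a covariate they were 2 at 10 ppm after 1 week, 0 at 0.5 ppm after 12 weeks, 3 between the water groups, 1 over all doses and 1 for the difference at 10 ppm. With integrity of at least 8 they were 1 at 10 ppm after 1 week and 3 over all doses. With poly-A spikes they were 0 at 0.5 and 0 at 50 ppm after 12 weeks, 1 over all doses and 0 for the difference at 50 ppm. With hybridization controls they were 1 at 10 ppm after 1 week, 0 at 0.5 and 0 at 50 ppm after 12 weeks, 2 between the water groups and 2 over all doses. In 1 fit of all arrays they were 1 at 10 ppm after 1 week, 3 at 0.5 and 2 at 50 ppm after 12 weeks, and 1 for the 12-week slope. Quantile normalization gave 1 at 10 ppm after 1 week, 0 at 0.5 ppm after 12 weeks, 3 over all doses (with Myh11, positive, among them) and 5 for the difference at 0.5 ppm. With no filter the count at 0.5 ppm after 12 weeks was 0. A filter at the 60th percentile gave 1 for the 12-week slope and 1 for the difference at 10 ppm. All probe sets gave 1 at 10 ppm after 1 week, 0 at 0.5 ppm after 12 weeks and 1 for the difference at 10 ppm, and an offset of 64 gave 1 for that difference. Leaving out single mice gave 0 to 2 at 0.5 ppm and 0 to 2 at 50 ppm after 12 weeks, 0 to 3 for the slope, 0 to 1 at 10 ppm after 1 week, 2 to 7 between the water groups, 1 to 5 and 0 to 2 for the differences at 0.5 and 10 ppm. A replicate block, run although the numbers pair no mice, kept 1 at 50 ppm and 5 between the water groups and moved no count of these genes.

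Signs turned at 0.5 ppm after 12 weeks for Acta2 (0.043 quantile, 0.011 poly-A), Tagln (0.08 quantile, 0.021 integrity, 0.05 poly-A), Actg2 (-0.016) and Cnn1 (-0.041, both hybridization). Leaving out single mice at that dose gave -0.119 to 0.01 for Acta2, -0.011 to 0.115 for Actg2, -0.12 to 0.029 for Tagln and -0.047 to 0.086 for Cnn1. With poly-A spikes Synm was -0.115 and Myocd -0.008 at 10 ppm after 12 weeks, and over all doses Acta2 was 0.037, Tagln 0.024 and Myh11 -0.051. With hybridization controls Des was -0.122, Smtn -0.076 and Lmod1 -0.176 at 50 ppm after 12 weeks, and Acta2 0.089 and Tagln 0.056 between the water groups.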
